A study of Mus musculus with 18 samples.

Results

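Mouse hearts exposed to 2 kinds of hypoxia, one chronic and constant (CCH) and one chronic and intermittent (CIH), were compared as one condition with control hearts, and genes displaced from control in the same direction by both kinds were sought. All 12 arrays titled with either kind of hypoxia and the 6 arrays titled control were used, which together are the 18 arrays of the series. CCH, CIH and control each had 2 arrays at 1 week, 2 at 2 weeks and 2 at 4 weeks, and every comparison was made within duration and then averaged over the 3 durations. Each array was a 2-colour cDNA microarray on which heart cDNA of a male mouse, labelled with Cy5, was hybridised together with heart cDNA of a female mouse of the same condition, labelled with Cy3. The labels give no strain, age, oxygen level or cycle of the intermittent exposure, and they do not state if 2 arrays of a group used different mice. The p-values below therefore reflect only the scatter among these arrays, which may be technical.

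Because both sexes of a condition met on 1 array, the deposited value of a spot is a log2 ratio between the sexes, and a difference between hypoxia and control is a difference in that ratio. A positive difference can come from a higher level in hypoxic males, a lower level in hypoxic females, or changes of unequal size in both sexes. These cannot be told apart. A change of equal size in both sexes leaves the ratio as it was and cannot be seen here. The direction of the ratio is not given in the labels. Male over female was adopted because of the Y-linked gene Eif2s3y, whose stronger spot was positive on 17 of 17 arrays with a value. Its second spot was slightly negative on 2 arrays (CIH 4 weeks replicate 1 and control 4 weeks replicate 1). A ratio holds no level, so the tissue label could not be checked against heart marker genes, and fewer cells of a type cannot be told apart from less RNA per cell.

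The body answers low oxygen largely through the hypoxia-inducible factors. In normal air, prolyl hydroxylases (the Egln genes) mark the factors' alpha subunits for destruction through Vhl, and in low oxygen the subunits persist, pair with Arnt and switch on genes of glucose uptake, glycolysis, vessel growth and red-cell production. The heart, which normally burns mainly fatty acids in its mitochondria, meets chronic hypoxia with a heavier load on the right ventricle and with thicker blood. Constant hypoxia resembles life at altitude, whereas intermittent hypoxia adds repeated reoxygenation, as in sleep apnoea.

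Between 12650 and 24512 of 28704 spots had a value on an array. Over the spots with a value on both, arrays correlated with each other from -0.53 to 0.74, and 12 of 153 pairs lay below -0.3. The highest value was between arrays of different kinds, CCH 2 weeks replicate 1 and CIH 2 weeks replicate 2. The 2 arrays of a group correlated from -0.038 to 0.69. The labels state the dyes and give each array its own male and female sample, so the direction was kept as it stands. The array CIH 1 week replicate 1 is titled 1 week of CIH but its source names read CCH at 2 weeks, and control 2 weeks replicate 1 carries a code with the digit of the first week. Both were grouped by title.

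After centring each array on its median and averaging the spots of each gene, 10272 units had a value in each of the 9 groups, 6945 of them named genes and 3327 spots with no or several gene names. In the limma fit 0 of 10272 units differed between pooled hypoxia and control at an adjusted p under 0.05, and the smallest adjusted p was 0.36. Of these units, 1137 (11.1%) had an unadjusted p under 0.05, against 513.6 that an even spread of p-values would give, with 401 higher (3.9%) and 736 lower (7.17%). Among named genes 689 (9.92%) did, with 279 higher (4.02%) and 410 lower (5.9%). The distribution of p-values was highest in the lowest bin.

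**Figure D1:**
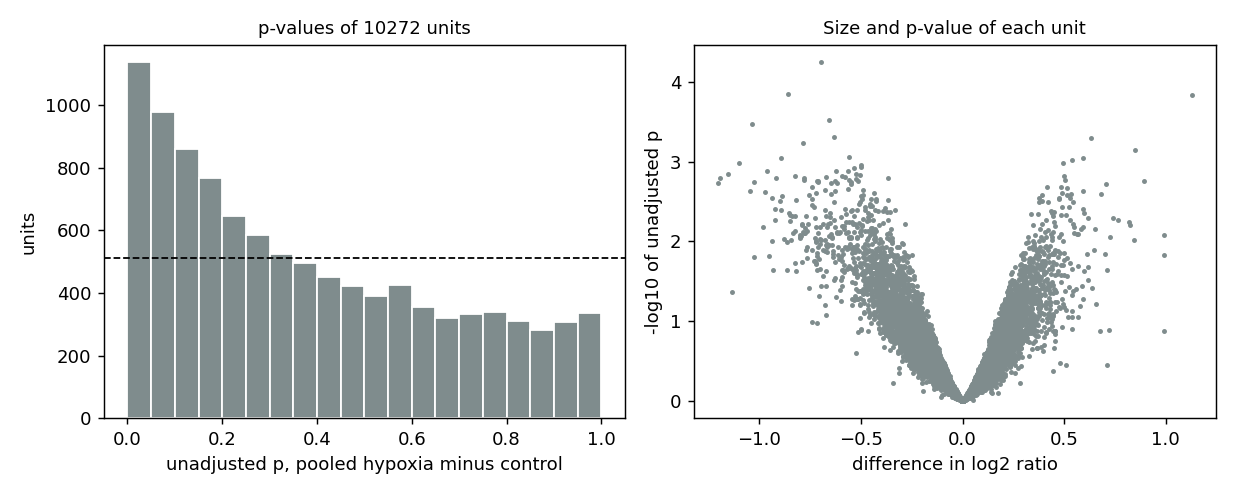
The left panel counts the 10272 units by unadjusted p of the pooled difference in bins of 0.05, with a dashed line at the 513.6 units per bin of an even spread, and the right panel plots each unit's difference in log2 ratio against -log10 of its p. The lowest bin holds 1137 units, and no unit reached an adjusted p under 0.05.

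The number of low p-values depended on particular arrays. Without control 2 weeks replicate 2 the count at an unadjusted p under 0.05 was 574, without control 4 weeks replicate 1 it was 683, and without both together it was 375. Without control 4 weeks replicate 2 it was 2133 and without CIH 4 weeks replicate 2 it was 1844. The number past the adjusted threshold was 0 in all but 2 of the 18 omissions of a single array. Glo1, which detoxifies methylglyoxal and is named here after its values were seen, passed without CIH 4 weeks replicate 2, with a difference of 1.02 (limma, adjusted p = 0.028). Scgb3a2, a secretory protein gene of lung airways, passed without control 1 week replicate 2, which left control 1 week replicate 1, at -2.87, as the only control of its duration (limma, adjusted p = 0.018).

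The precision of the pooled difference was a median standard error (SE) of 0.14 on the log2 scale, with a median 95% half-width of 0.30. From the 5th to the 95th percentile of units the differences ran from -0.40 to 0.30, and 10 units exceeded 1 in size. Differences of a typical size were therefore not detectable with these arrays. The median difference of named genes was -0.0092, and 52.1% of them lay below 0.

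Both kinds lay on the same side of control for 7577 of 10272 units (73.8%), including 5043 of 6945 named genes (72.6%), 2392 above (34.4%) and 2651 below (38.2%). CCH and CIH were set against the same 6 control arrays, which pulls both differences the same way, so this share is a description of the values. With both kinds at an unadjusted p under 0.05 and of one sign there were 183 units (1.78%), 101 higher (0.983%) and 82 lower (0.798%). When the weaker of both p-values was adjusted over all units, 0 passed and the smallest adjusted p in limma was 1. Taken alone, CCH gave 0 units past the adjusted threshold and 649 at an unadjusted p under 0.05 (6.32%), and CIH gave 1 and 1307 (12.7%). CCH minus CIH gave 1 and 953 (9.28%).

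None of the genes that follow passed the adjusted threshold for the pooled difference. They are the 12 per direction with the smallest p-values and both kinds of one sign, and their limma adjusted p was 0.36 in each case. Values are differences in the log2 male-to-female ratio, hypoxia minus control, with the SE of the fit.

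For 24 of 124 named genes some spots had no value in part of the 9 groups, so that group means drew on unequal spots, and values of single spots are given where this moved a result. On the higher side, Mrpl40, a protein of the mitochondrial ribosome, differed by 0.63 ± 0.14. Its ratio ran from -1.11 to 0.37 on 6 control arrays (median 0.035) and from 0.065 to 1.66 on 12 hypoxia arrays (median 0.32). Both 2-week control arrays, at -0.72 and -1.11, lay below every other array, and outside them hypoxia and control overlapped. The difference was 0.13 at 1 week, 1.22 at 2 weeks and 0.55 at 4 weeks.

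Nolc1, a nucleolar phosphoprotein needed for ribosome assembly, differed by 0.59 ± 0.14, and 12 of 12 hypoxia arrays lay above the control mean of their duration. Its ratio ran from -0.53 to 0.044 on 6 control arrays (median -0.14) and from -0.064 to 1.06 on 12 hypoxia arrays (median 0.46). Of the 12 hypoxia arrays 10 exceeded every control, and the exceptions were CCH 2 weeks replicate 2 and CIH 4 weeks replicate 2. The kinds gave 0.54 in CCH and 0.65 in CIH. Top1, the DNA topoisomerase that relieves torsion during transcription, differed by 0.39 ± 0.11, with 12 of 12 hypoxia arrays above the control mean. Its ratio ran from -0.50 to 0.060 on 6 control arrays (median -0.13) and from -0.28 to 0.75 on 12 hypoxia arrays (median 0.16), and 8 hypoxia arrays lay above every control. On the only Top1 spot with a value in all 9 groups the difference was 0.39, with 11 of 12 arrays above the control mean.

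Ugcg, which makes glucosylceramide from ceramide, differed by 0.68 ± 0.19, and again 12 of 12 arrays lay above the control mean. The values ran from -0.72 to 0.089 on 5 control arrays (median -0.14) and from -0.20 to 1.27 on 12 hypoxia arrays (median 0.39), and the difference was 0.24 at 1 week, 0.66 at 2 weeks and 1.15 at 4 weeks. At 4 weeks only 1 control array had a value. Abca5, a lipid transporter of the lysosome, differed by 0.70 ± 0.18, with a ratio from -0.22 to 0.85 on 5 control arrays (median -0.037) and from -0.12 to 1.58 on 12 hypoxia arrays (median 0.61). Control 4 weeks replicate 2 was high among the controls, and 5 hypoxia arrays lay above it. Sec24d, a coat protein of vesicles leaving the endoplasmic reticulum, differed by 0.49 ± 0.13, but its spots disagreed, since 1 differed by 0.85 and another by -0.11.

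Iigp1, an interferon-inducible GTPase directed against intracellular pathogens, differed by 0.59 ± 0.16, with 0.45 in CCH and 0.73 in CIH. Klc1, a light chain of the kinesin motor, differed by 0.51 ± 0.13 and Ptprk, a receptor tyrosine phosphatase, by 0.48 ± 0.13. For Klc1 and for Ptprk 9 hypoxia arrays lay above every control, but both drew on unequal spots. The Klc1 spot with a value in all 9 groups differed by 0.37, and Ptprk, which had no such spot, differed by 0.41 with spot-adjusted averaging, in which each spot's mean over the arrays is removed first. Ankrd39 (0.54), Vstm4 (0.53) and 6330549H03Rik (0.51) completed the set, each with a value on 15 arrays.

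**Figure D2:**
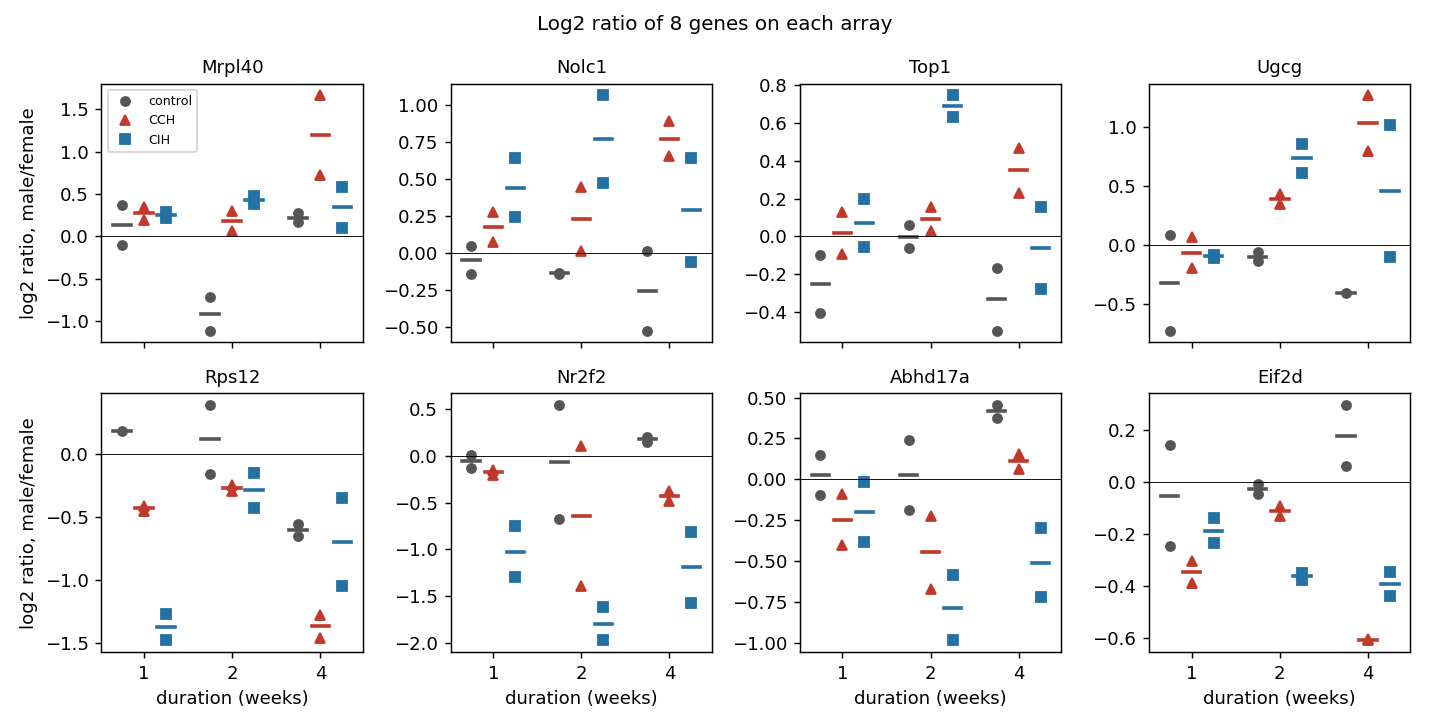
Each point is the log2 male-to-female ratio of a gene on 1 array (circles control, triangles CCH, squares CIH) by duration in weeks, and short lines are group means of up to 2 arrays. Nolc1 lies above control on most hypoxia arrays and Abhd17a and Eif2d below, while Mrpl40 parts from control mainly through its 2-week controls.

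On the lower side, Abhd17a, an enzyme that removes palmitate from membrane proteins, had all 12 hypoxia arrays below the control mean of their duration. It differed by -0.50 ± 0.13, with a ratio from -0.19 to 0.45 on 6 control arrays (median 0.19) and from -0.99 to 0.16 on 12 hypoxia arrays (median -0.34), and 8 hypoxia arrays lay below every control. Eif2d, a translation factor that places initiator tRNA, differed by -0.37 ± 0.10, with a ratio from -0.25 to 0.29 on 6 control arrays (median 0.025) and from -0.61 to -0.091 on 12 hypoxia arrays (median -0.35). One of its spots had values only in CCH and control at 1 week. On the other spot alone the difference was -0.29, with -0.34 in CCH and -0.24 in CIH, and 10 of 12 hypoxia arrays lay below the control mean. By duration that spot gave 0.015 at 1 week, -0.21 at 2 weeks and -0.68 at 4 weeks.

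Rps12, a protein of the small ribosomal subunit, differed by -0.63 ± 0.14, and its ratio ran from -0.65 to 0.38 on 5 control arrays (median -0.16) and from -1.48 to -0.15 on 12 hypoxia arrays (median -0.44). The lowest values were those of CIH at 1 week (-1.48 and -1.27) and CCH at 4 weeks (-1.28 and -1.45). At 2 weeks the hypoxia arrays overlapped the controls. It had no value on control 1 week replicate 1. Ribosomal protein genes have many processed copies, so its spot may also detect those.

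Nr2f2, a nuclear receptor that sets atrial and venous identity, differed by -0.89 ± 0.22, with -0.43 in CCH and -1.35 in CIH. Its ratio ran from -0.67 to 0.54 on 6 control arrays (median 0.077) and from -1.97 to 0.11 on 12 hypoxia arrays (median -0.78). All 6 CIH arrays lay below every control, at -1.97 to -0.75, whereas CCH spanned -1.39 to 0.11. Phtf1, a membrane protein gene known mainly from testis, was the extreme of this pattern. Its pooled difference of -0.86 ± 0.17 joined -0.081 in CCH and -1.64 in CIH, and it was the single named gene whose CCH and CIH differed in limma (adjusted p = 0.010). One of its 2 spots had no value on any CIH array at 2 or 4 weeks, so the kinds drew on unequal spots. On the spot with a value in all 9 groups CCH differed from control by -0.45, CIH by -1.73 and CCH from CIH by 1.28. With each spot on its own 0 units passed in CCH minus CIH, and likewise with spot-adjusted averaging (limma). In CCH minus CIH 0 units passed when any one of 5 arrays was left out, namely replicate 2 of CCH at 1 or 2 weeks, replicate 1 of CIH at 1 or 4 weeks, or replicate 2 of CIH at 2 weeks (limma, smallest adjusted p 0.050 to 0.069). Rab23 (a vesicle GTPase, -0.79 ± 0.18) and Ccdc201 (-1.19 ± 0.31) likewise had larger CIH values, at -1.16 and -1.86, than CCH values, at -0.41 and -0.52.

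Mfap4, a microfibril protein of elastic fibres, differed by -0.59 ± 0.15, with a ratio from -0.26 to 0.33 on 6 control arrays (median 0.10) and from -1.42 to 0.0060 on 12 hypoxia arrays (median -0.37). Of its 12 hypoxia arrays 10 lay below every control. Nectin2, an adhesion molecule, differed by -0.58 ± 0.15, with -0.19 at 1 week, -0.23 at 2 weeks and -1.31 at 4 weeks. Mzt1, a component of the microtubule-nucleating complex (-0.53), Sat2, related to polyamine acetyltransferases (-0.52), and Grhpr, which clears glyoxylate (-0.50), had similar values in both kinds or larger ones in CCH.

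**Figure D3:**
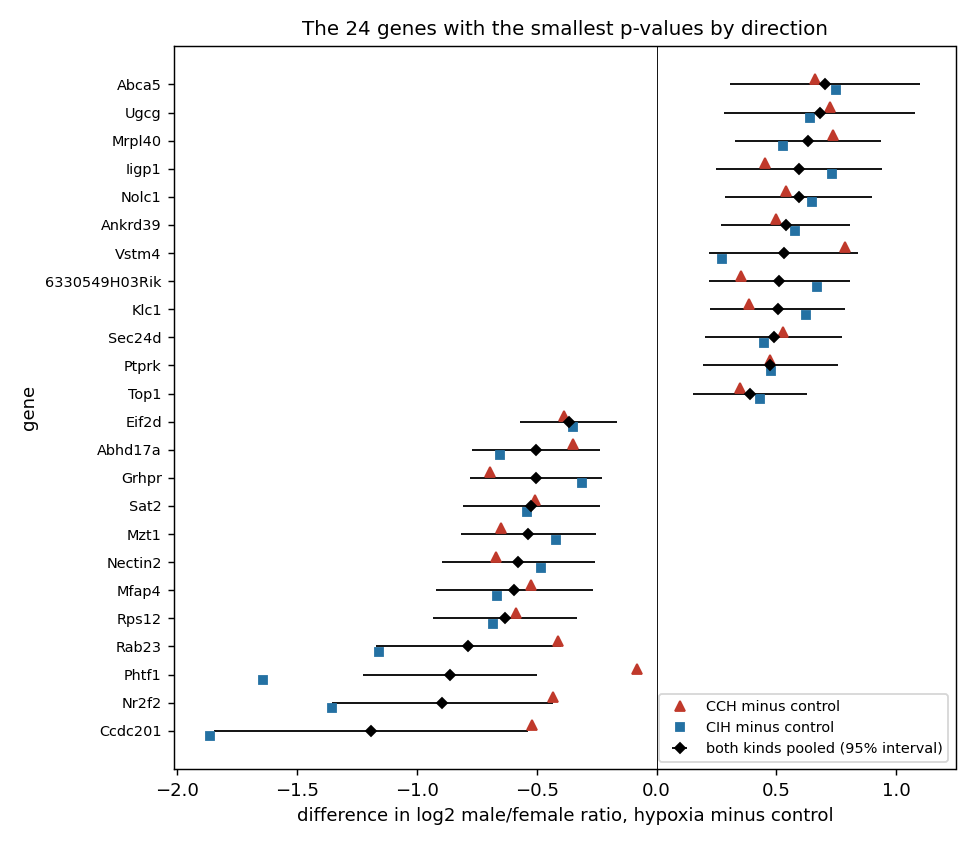
Diamonds give the pooled hypoxia minus control difference in log2 male-to-female ratio of 24 genes with its 95% interval, triangles the CCH and squares the CIH difference, both against the same 6 control arrays. The kinds nearly coincide for Sat2, and they part for Phtf1, Ccdc201, Nr2f2 and Rab23.

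Complete separation of hypoxia from control was rare. In 5 units (0.0487%) all hypoxia arrays lay below all controls of the same duration, and in 0 units above. Among them were 3 named genes (0.0432% of 6945), picked out after their values were seen. Atp6v0d1, a subunit of the proton pump that acidifies lysosomes, differed by -0.33 ± 0.10, with a ratio from -0.17 to 0.33 on 6 control arrays (median 0.046) and from -0.70 to -0.016 on 12 hypoxia arrays (median -0.27). Its spots differed by -0.33 and -0.34, but neither separated hypoxia from control alone, with 10 of 12 hypoxia arrays below the control mean on each. At 1 week 1 spot gave -0.28 and the other -0.047. Cyp39a1, an oxysterol hydroxylase, differed by -0.26 ± 0.13 and ran from 0.21 to 0.45 on 4 control arrays (median 0.27) and from -0.16 to 0.19 on 10 hypoxia arrays (median 0.082), so that no hypoxia array reached any control, which held for no other named gene (0.0144%). Mosmo, a regulator of Hedgehog signalling, differed by -0.26 ± 0.14. Cyp39a1 and Mosmo each had 4 control and 10 hypoxia arrays with a value.

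The members of the hypoxia pathway itself gave small differences in the ratio between the sexes. A response of equal size in both sexes, in these genes or in their targets, would not show in these values. Of 11 tested genes of oxygen sensing, 0 had an unadjusted p under 0.05 in limma (0%, against 9.92% of named genes). A list of 11 genes is too short to tell these shares apart. The median difference of the list was 0.066. Hif1a, the oxygen-regulated subunit, differed by 0.19 ± 0.16, its partner Arnt by 0.028 ± 0.13 and Vhl by -0.034 ± 0.13. The hydroxylase genes Egln1 and Egln3 differed by 0.066 ± 0.13 and 0.19 ± 0.18. Cul2 (0.13) and Eloc (0.18), which belong to the ligase that holds Vhl, were similar. Epas1, which encodes the second main alpha subunit, was not analysed here.

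Of 29 tested targets of the hypoxia-inducible factors, 21 lay above 0, with 1 higher and 2 lower at an unadjusted p under 0.05 (10.3% in all, against 9.92% of named genes), and their median was 0.067. Ldha, which turns pyruvate into lactate, differed by 0.29 ± 0.13, with a ratio from -0.61 to 0.084 on 6 control arrays (median -0.10) and from -0.20 to 0.48 on 11 hypoxia arrays (median 0.072). Slc2a1, the widely expressed glucose transporter, differed the other way, by -0.31 ± 0.12, with 11 of 12 hypoxia arrays below the control mean. Its spots disagreed, at -0.66 and 0.03. Bnip3l, a mitophagy receptor also needed to clear mitochondria from maturing red cells, differed by -0.59 ± 0.22, while its relative Bnip3 differed by 0.067 ± 0.13. Pdk1 (0.27 ± 0.19), Pgk1 (0.10 ± 0.19), Hmox1 (0.093 ± 0.30) and Tfrc (0.12 ± 0.17) lay within 2 SE of 0.

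The promoter windows of Ldha and Slc2a1 are shown because the spot-averaged values of these targets lay on opposite sides of 0 although both hold the core motif that the factors bind. They are the 250 bases before the start site in RefSeq (build GRCm38.p6), at chr7:46845554-46845803, strand + for Ldha and chr4:119108495-119108744, strand + for Slc2a1. Capitals mark ACGTG or GCGTG on either strand, and neighbouring capitals can be overlapping matches.
Ldha: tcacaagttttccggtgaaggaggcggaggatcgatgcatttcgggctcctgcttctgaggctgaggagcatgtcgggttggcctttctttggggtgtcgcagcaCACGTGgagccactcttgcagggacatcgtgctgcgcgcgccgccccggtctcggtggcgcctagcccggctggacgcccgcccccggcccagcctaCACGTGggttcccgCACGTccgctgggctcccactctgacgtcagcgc
Slc2a1: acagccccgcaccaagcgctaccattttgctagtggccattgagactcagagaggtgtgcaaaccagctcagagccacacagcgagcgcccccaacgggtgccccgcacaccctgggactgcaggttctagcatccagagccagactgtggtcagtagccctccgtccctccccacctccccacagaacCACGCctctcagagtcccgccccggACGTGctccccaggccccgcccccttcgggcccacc
Ldha held 5 matches, where each CACGTG counts once per strand, and Slc2a1 held 2. Ldha had 2 windows, and the one with the lower coordinate is shown. Of 32851 windows of this length, 38.6% held at least 1, as did 62.9% of the 5586 named genes tested that had a window and 21 of 23 targets. The median difference of the 21 targets with a match was 0.066, against -0.0015 for the 3514 tested genes with one. A match is a run of letters and does not show binding.

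Red-cell genes made up the list with the largest single differences, and the CIH values were the larger ones, although limma called none of these genes between CCH and CIH. Of 41 tested members 28 lay below 0, with 1 higher and 10 lower at an unadjusted p under 0.05 (26.8% in all, against 9.92% of named genes), and the median was -0.12. List medians were -0.034 in CCH and -0.18 in CIH, and 0.030 at 1 week, -0.29 at 2 weeks and -0.23 at 4 weeks. At 4 weeks the list difference was -0.060 without control replicate 1 and -0.36 without control replicate 2, and at 1 week it was -0.028 without control replicate 2. Per array the list median ran from -0.073 to 0.18 on the 6 control arrays. Over the 12 hypoxia arrays it ran from -0.51 (CCH 2 weeks replicate 1) to 0.31 (CCH 4 weeks replicate 1), so the lowest array was one of CCH. On 6 hypoxia arrays it lay below every control and on 1 above, so the groups overlapped.

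Alas2, the first enzyme of haem synthesis in red cells, differed by -1.03 ± 0.38, with -0.33 in CCH and -1.73 in CIH. Its spots disagreed in CCH, at 0.045 and -0.70, and gave -1.65 and -1.81 in CIH. Its ratio ran from -0.74 to 1.47 on 6 control arrays (median 0.34) and from -2.82 to 1.50 on 12 hypoxia arrays (median -0.76), and CCH alone spanned -2.04 to 1.50. Fech, which inserts iron into haem, differed by -0.80 ± 0.27, and Bpgm, which makes the compound that loosens oxygen from haemoglobin, by -0.77 ± 0.23. The spots of Bpgm gave -0.36 and -1.18, and on the second control 4 weeks replicate 2 stood at 2.88. Blvrb, a biliverdin reductase, gave 0.056 in CCH and -0.94 in CIH. Sptb, a spectrin of the red-cell membrane that heart muscle also uses, lay above control at 0.55 ± 0.17.

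The tested globin spots carry the names of embryonic genes, Hbb-bh1 (-0.98 ± 0.31), Hba-x (-0.77 ± 0.28) and Hbb-y (-0.74 ± 0.42). These share much sequence with the adult globins, and what a spot detects cannot be told apart. The difference of Hbb-bh1 was 0.18 at 1 week, -1.41 at 2 weeks and -1.72 at 4 weeks. All 3 lay below control in both kinds.

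Windows of 250 bases before the start are shown for Alas2 (chrX:150547167-150547416, strand +), Hba-x (chr11:32276350-32276599, strand +) and Hbb-y (chr7:103853208-103853457, strand -) because these low-ratio genes share the motif of the erythroid GATA factors. Capitals mark AGATAA or TGATAA on either strand.
Alas2: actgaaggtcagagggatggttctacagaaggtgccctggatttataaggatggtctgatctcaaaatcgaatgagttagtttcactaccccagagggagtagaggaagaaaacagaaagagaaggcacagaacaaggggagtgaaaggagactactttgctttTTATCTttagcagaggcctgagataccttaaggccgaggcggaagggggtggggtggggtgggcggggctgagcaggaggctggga
Hba-x: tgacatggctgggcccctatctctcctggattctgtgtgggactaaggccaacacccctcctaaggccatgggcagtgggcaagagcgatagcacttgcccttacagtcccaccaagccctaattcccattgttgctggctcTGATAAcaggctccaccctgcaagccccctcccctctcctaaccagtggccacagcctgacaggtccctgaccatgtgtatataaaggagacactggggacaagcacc
Hbb-y: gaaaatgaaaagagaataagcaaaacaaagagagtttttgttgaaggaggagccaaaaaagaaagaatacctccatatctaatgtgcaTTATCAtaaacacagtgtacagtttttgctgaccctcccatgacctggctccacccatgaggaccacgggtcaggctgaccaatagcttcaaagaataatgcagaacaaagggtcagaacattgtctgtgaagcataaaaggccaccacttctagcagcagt
Each held 1 match, as did 16.6% of all windows with at least 1. Among the 32 red-cell genes with a window, 12 held a match and had a median difference of -0.17, and the 20 without had 0.0097. Over all tested genes the medians were -0.034 for 629 with a match and -0.0017 for 4957 without.

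When each array's red-cell list median was entered as a covariate, 0 units passed in limma and the count at an unadjusted p under 0.05 was 470, down from 1137. At 2 and 4 weeks only, that count was 2860 and 0 units passed. These settings, spot-adjusted averaging, the values of single spots, the list values without 1 control and the omission of both control arrays together were added after the data were seen.

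For macrophage and complement genes the list median was likewise below 0. Of 17 tested, 12 lay below 0, with 0 higher and 3 lower at an unadjusted p under 0.05 (17.6% in all, against 9.92% of named genes), at a median of -0.19. C1qa, a chain of the first complement component, differed by -0.69 ± 0.21, with a ratio from -0.66 to 0.16 on 6 control arrays (median -0.13) and from -1.62 to 0.15 on 12 hypoxia arrays (median -0.80), and 9 hypoxia arrays lay below every control. C1qb, another of its chains, differed by -0.43 ± 0.15, but the chain gene C1qc differed by only -0.035. Tyrobp, an adaptor of myeloid receptors, differed by -0.36 ± 0.14. The highest of the list was the class II antigen-presenting gene H2-Eb1 at 0.14. The list median was 0.16 at 1 week, -0.35 at 2 weeks and -0.39 at 4 weeks, and at 1 week it was -0.16 without control replicate 1.

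Matrix genes differed little, and mostly to the lower side. Of 35 tested, 27 lay below 0 and 23 did so in both kinds, at a median of -0.10, with 0 higher and 1 lower at an unadjusted p under 0.05 (2.86% in all, against 9.92% of named genes). By duration the list median was -0.20 at 1 week, 0.12 at 2 weeks and -0.18 at 4 weeks. Bgn, a small proteoglycan that organises collagen, differed by -0.34 ± 0.12, and its 3 spots gave -0.29, -0.28 and -0.45. Averaged over spots, all 12 hypoxia arrays lay below the control mean of their duration. The ratio ran from -0.37 to 0.083 on 6 control arrays (median -0.18) and from -1.06 to -0.087 on 12 hypoxia arrays (median -0.52). On the single spots 11, 8 and 10 of 12 hypoxia arrays lay below the control mean. The spots disagreed by duration, at -0.32, 0.26 and -0.81 at 1 week and -0.28, -0.64 and 0.059 at 2 weeks. Loxl1, an elastin cross-linking enzyme (-0.33 ± 0.16), and Col6a1, a collagen chain (-0.20 ± 0.10), were lower than control without reaching that p. The spots of Col6a1 disagreed, at -0.29, -0.54 and 0.22.

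**Figure D4:**
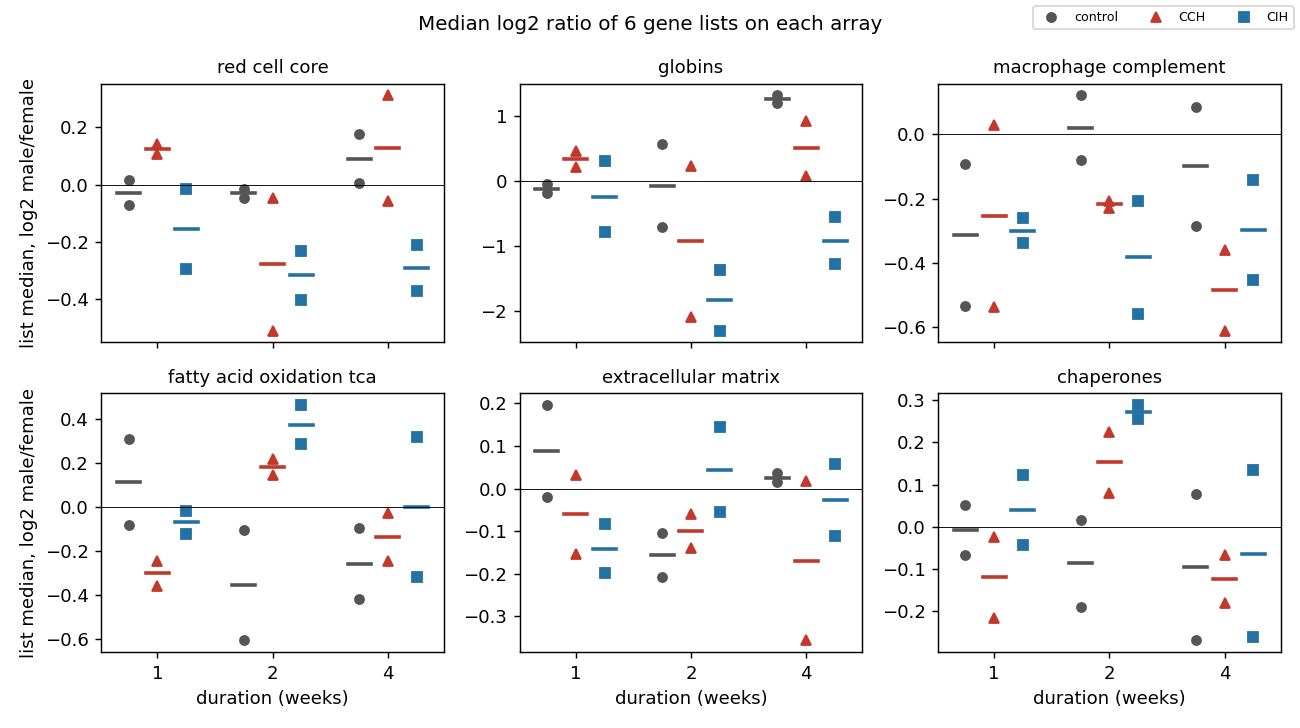
Each point is the median log2 male-to-female ratio of a gene list on 1 array (circles control, triangles CCH, squares CIH) by duration in weeks, with short lines at group means of 2 arrays. CIH lies low in red-cell and globin genes at 2 and 4 weeks, as does 1 CCH array at 2 weeks (replicate 1). Hypoxia lies above control in fatty acid genes at 2 weeks but not at 1 week, where the 2 controls of each duration stand apart.

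Genes of cytosolic ribosomal proteins lay below 0 in 41 of 54 cases, at a median of -0.092, with 1 higher and 4 lower at an unadjusted p under 0.05 (9.26% in all, against 9.92% of named genes). The list median was -0.16 in CCH but -0.0092 in CIH, and 29 genes lay below and 8 above control in both kinds. Rps23 differed by -0.43 ± 0.14 and Rpl41 by -0.40 ± 0.14. Like Rps12, both had no value on control 1 week replicate 1, on which the list median was lowest among controls at -0.63 (the other controls lay from -0.20 to 0.14). At 1 week the list difference was -0.34 without that array and 0.35 without control replicate 2, so its sign depended on 1 control. Of the mitochondrial ribosome 35 of 61 lay below 0 with a median of -0.030 (-0.11 in CCH and 0.031 in CIH). Its members split, since Mrpl40 was among the highest genes while Mrpl47 (-0.84 ± 0.25) and Mrps35 (-0.43 ± 0.12) were among the lower ones. For Mrps35, 10 hypoxia arrays lay below every control.

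Fatty acid oxidation and citric acid cycle genes lay above 0 in 27 of 36 cases, at a median of 0.14, with 3 higher and 0 lower at an unadjusted p under 0.05 (8.33% in all, against 9.92% of named genes). The median was 0.043 in CCH and 0.23 in CIH. The list median had opposite signs at 1 week and later, at -0.35 at 1 week, 0.62 at 2 weeks and 0.17 at 4 weeks. The 2 controls of a duration stood apart, at 0.31 and -0.080 at 1 week and -0.11 and -0.60 at 2 weeks. Without control 1 week replicate 1 the 1-week value was -0.14, and without control 2 weeks replicate 2 the 2-week value was 0.36. At 4 weeks it was 0.034 without control replicate 1. Lpl, which frees fatty acids from blood lipids, differed by 0.54 ± 0.17, and Pdk4, which diverts the heart from glucose to fat, by 0.34 ± 0.14. For Lpl the difference was -0.37 at 1 week, 1.36 at 2 weeks and 0.64 at 4 weeks, and control 2 weeks replicate 2 was the lowest of all arrays at -1.16. Mdh2, of the citric acid cycle, differed by 0.30 ± 0.14.

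Heart muscle lists also moved with single controls at 1 and 2 weeks. Sarcomere genes had a median of 0.17 and calcium cycling genes 0.081, and by duration the sarcomere median was -0.28 at 1 week, 0.52 at 2 weeks and 0.12 at 4 weeks. It was 0.090 at 1 week without control replicate 1 and 0.21 at 2 weeks without control replicate 2, so the 1-week sign turned. Pdlim5, a Z-disc scaffold, gave -0.52 at 1 week, 1.86 at 2 weeks and 0.39 at 4 weeks, and Pln, the brake on the calcium pump, gave -0.36 at 1 week, 1.44 at 2 weeks and 0.27 at 4 weeks. For both genes control 1 week replicate 1 was the high 1-week control (1.18 and 0.86) and control 2 weeks replicate 2 the low 2-week control. Slc8a1, the sodium-calcium exchanger, differed by 0.46 ± 0.22, and Sri, a calcium-binding regulator of the release channel, by -0.39 ± 0.15. The 71 respiratory chain genes had a median of -0.026, at -0.10 in CCH and 0.069 in CIH. By duration it was -0.34 at 1 week, 0.36 at 2 weeks and -0.10 at 4 weeks. The 1-week value was -0.27 without control replicate 1 and the 2-week value 0.17 without control replicate 2. Among them Cox7b (0.65 ± 0.21) and Cox6a1 (0.33 ± 0.13), of cytochrome oxidase, lay higher and Ndufa13 (-0.28 ± 0.12), of complex I, lower.

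No single unit changed with duration past the threshold. The limma F test over the 3 durations called 0 units, with a smallest adjusted p of 0.43, and 1155 (11.2%) had an unadjusted p under 0.05. Pooled hypoxia against control gave 0 units at 1 week, 0 at 2 weeks and 0 at 4 weeks, with 336 (3.27%), 2179 (21.2%) and 974 (9.48%) at an unadjusted p under 0.05. Each duration set 4 hypoxia arrays against 2 controls.

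**Figure D5:**
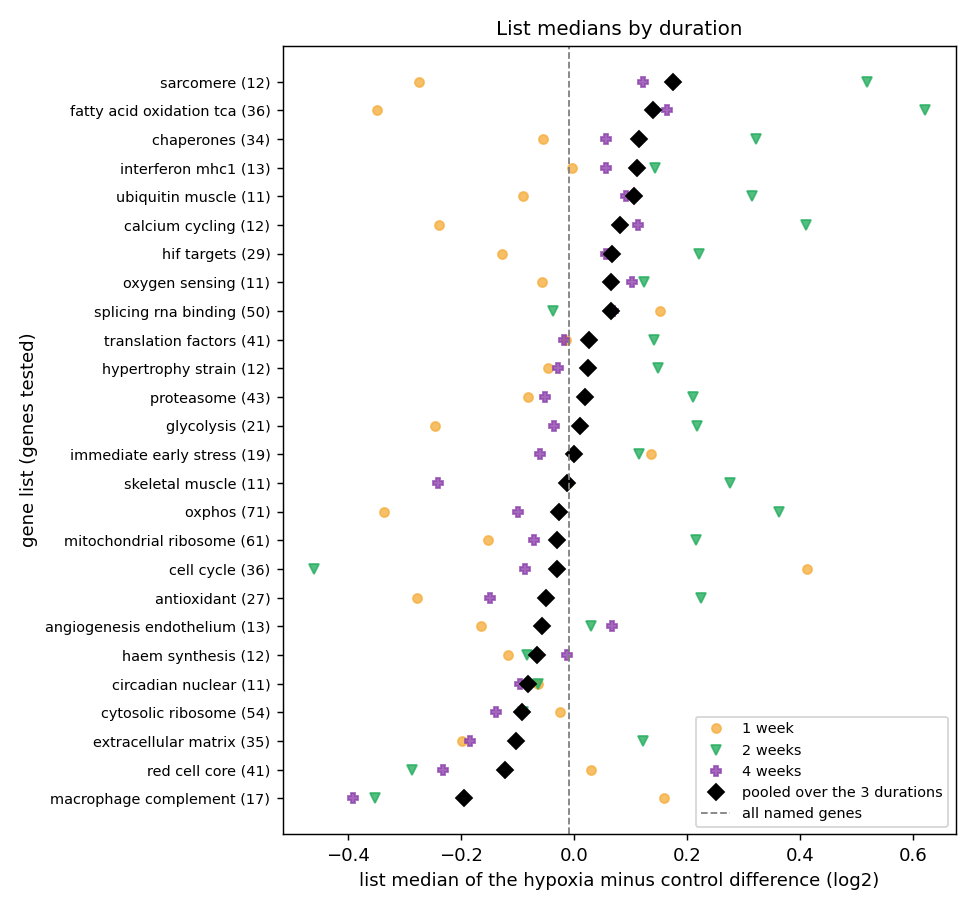
Diamonds give the median over a list's genes of the pooled hypoxia minus control difference in log2 male-to-female ratio, and coloured points the same at 1, 2 and 4 weeks, for lists with at least 10 tested genes (numbers in brackets), with a dashed line at the median of all named genes. Pooled medians lie between -0.19 and 0.17, while fatty acid oxidation runs from -0.35 at 1 week to 0.62 at 2 weeks (-0.14 and 0.36 without the control that stands apart).

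Stress and protein turnover genes differed by list. Chaperones lay above 0 in 26 of 34 cases (median 0.12), led by Hsph1, a large heat shock protein, at 0.41 ± 0.13. At an unadjusted p under 0.05 there were 1 higher and 0 lower (2.94% in all, against 9.92% of named genes). The chaperone median was -0.056 at 1 week, 0.32 at 2 weeks and 0.057 at 4 weeks, and at 4 weeks it was -0.18 without control replicate 1. Antioxidant genes lay below 0 in 17 of 27 cases (median -0.050), with 0 higher and 5 lower at an unadjusted p under 0.05 (18.5% in all, against 9.92% of named genes). Their median was -0.12 in CCH and -0.0022 in CIH, and -0.28 at 1 week, 0.22 at 2 weeks and -0.15 at 4 weeks. Gpx1, a peroxide-reducing enzyme abundant in red cells, differed by -0.70 ± 0.22, Nqo1, a quinone reductase, by -0.45 ± 0.13, and Glrx5, of iron-sulphur cluster assembly, by -0.36 ± 0.10. The ratio of Gpx1 ran from -0.50 to 0.60 on 6 control arrays (median 0.16) and from -2.04 to 0.41 on 12 hypoxia arrays (median -0.49). Of 43 proteasome genes the median was 0.019 (-0.014 in CCH and 0.094 in CIH), with Psmd12 (0.49 ± 0.17) and the immunoproteasome subunit Psmb8 (0.39 ± 0.12) higher and Psmc3 (-0.26 ± 0.11) lower. Among stress factors Atf4 differed by 0.31 ± 0.15, with 12 of 12 arrays above the control mean, while Gadd45b differed by -0.51 ± 0.14 and Ddit3 by -0.36 ± 0.17.

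The width of the ratios was also compared, since a larger contrast between the sexes in hypoxia would widen them. The standard deviation of the ratios of an array was 0.429 ± 0.114 (SD, n = 12) in hypoxia and 0.340 ± 0.104 (SD, n = 6) in control. The difference of 0.0887 did not pass the two-sided exact permutation test within duration (p = 0.113, where the smallest p the relabellings allow is 0.000296). With a single array left out it ran from 0.0654 (without control 2 weeks replicate 1) to 0.119 (without control 4 weeks replicate 1). The mean ratio of hypoxia arrays differed from 0 for 3341 units (32.5%) in limma and that of controls for 1, from 12 and 6 arrays. At an unadjusted p under 0.05 these were 4622 (45%) and 940 (9.15%), and here sex and dye cannot be told apart.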

How the data were processed

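The authors deposited log2 ratios of the Cy5 and Cy3 channels. Base 2 follows from the deposited log2 values, whose antilogs have a mean of 1 on every array. Background correction, spot filtering and normalization are not given in the sources used here. Each array was centred on its median, spots with 1 gene symbol were averaged per gene (18511 of 28704 spots; 937 had several symbols and 9256 none), and units with a value in each of the 9 groups were kept, which left out 3280 of 10225 symbols. Where spots had gaps, a gene's mean drew on varying spots.

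The 9 group means entered limma 3.58.1 (R 4.3.3; lmFit, contrasts.fit, eBayes), with two-sided tests, with Benjamini-Hochberg adjustment over all units and a threshold of 0.05. The pooled contrast is the mean of 6 hypoxia groups minus that of 3 control groups. The code was tested on simulated data. Counts of arrays in a direction compare each hypoxia array with the control mean of its duration.

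Named genes are the 12 per direction with the smallest p-values and both kinds of one sign, up to 3 per list with the smallest p-values, and 18 set genes of the hypoxia response, sex chromosomes and cardiac load, of which Epas1 and Nppa could not be tested. Genes and lists were chosen with earlier results of these data known. Letters A and B in the titles were read as replicate numbers. Deviations of same-lettered arrays correlated from -0.56 to 0.46 over 36 group pairs, and 15 pairs lay above 0.1. These values do not settle if the letters pair the arrays. The main fit used no pairing, and a replicate block was fitted as an alternative. Figures used matplotlib 3.10.9.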

Additional observations from a re-analysis of the deposited data

Results flagged for a closer look

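Phtf1 was singled out because CCH and CIH differed from each other, by 1.56 in log2 ratio (limma, adjusted p = 0.010). One of its spots had no CIH value at 2 and 4 weeks. On the other spot CCH differed from CIH by 1.28, with CCH itself at -0.45 from control. The call was lost with each spot on its own and with spot-adjusted averaging. The remaining genes were singled out because every hypoxia array lay on one side of the control mean at 1 week and on the other side at a later duration. That difference between a pair of durations was not tested by itself, and the limma F test over all 3 durations gave these genes adjusted p-values from 0.43 to 0.64. Each value is the later difference minus the 1-week difference, in log2 ratio.

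From 1 to 2 weeks the value was 2.38 for the Z-disc gene Pdlim5, 1.80 for Pln, 1.73 for Lpl, 1.15 for Pdk4 and 1.37 for the co-chaperone Dnaja2. It was 0.83 for Bnip3 and 0.70 for the transferrin receptor Tfrc. Among sex-linked genes it was 1.24 for Eif2s3y, 1.48 for Kdm5c and -0.39 for Kdm6a, and it was -1.28 for the lymphocyte gene Il7r. From 1 to 4 weeks it was 1.01 for Lpl, 0.69 for Pdk4, 1.19 for Kdm5c and -1.25 for Rrm1, a subunit of ribonucleotide reductase. Control 2 weeks replicate 2 was the lowest of all arrays for Pdlim5 (-1.12), Pln (-1.30) and Lpl (-1.16).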

How the results depend on the processing

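The pooled count was 0 in 18 of 18 other processing settings and 0 or 1 when single arrays were left out, and the count of called genes of one sign in both kinds was likewise 0 to 1. At an unadjusted p under 0.05 the pooled count ran from 375 without the control pair to 2860 at 2 and 4 weeks only. The replicate block left the pooled count at 0 and gave 169 for CIH minus control. That CIH count (1 as reported) was unstable: 192 without centring, 109 over units on all 18 arrays, 199 for each spot on its own, 115 with the median of spots, 384 at 2 and 4 weeks only, and 0 with scaled arrays, at least 9 arrays, the additive model, array weights, spot-adjusted averaging, the red-cell covariate or without the control pair, and 0 to 305 with an array left out. CCH minus CIH (1 as reported) gave 0 with scaled arrays, at least 9 arrays, each spot on its own, the additive model, spot-adjusted averaging and the red-cell covariate, and 0 to 196 with an array left out. Scaling gave 13 at 2 weeks and 1 for the duration test, quantile normalization 1 for the duration test, and regrouping CIH 1 week replicate 1 gave 1 at 4 weeks. Leaving out an array gave 0 to 1 for CCH, 0 to 3 at 1 week, 0 to 1 at 2 weeks, 0 to 5 at 4 weeks, 0 to 1 for the duration test and 0.0654 to 0.119 for the spread of ratios. The cause was not tested.

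Of 124 named genes, 115 kept their sign in 35 settings. With an array left out, the others ran -0.080 to 0.013 (Vhl), -0.049 to 0.10 (Arnt), -0.043 to 0.23 (Hmox1), -0.0025 to 0.25 (Eif2s3y), -0.68 to 0.052 (Nppb), -0.011 to 0.14 (Egln1) and -0.032 to 0.23 (Pgk1). The sign also turned for Arnt without centring (-0.0019), for Eif2s3y with quantile normalization (-0.037) and scaling (-0.45), and with regrouping for Vhl (0.013) and Hmox1 (-0.035). With the red-cell covariate it turned for Vhl (0.044), Egln1 (-0.020), Pgk1 (-0.0014) and Hmox1 (-0.15), and without the control pair for Egln1 (-0.086), Pgk1 (-0.15), Pdk1 (-0.018) and Tfrc (-0.089). With 2 arrays per group, the number of arrays limits what can be detected.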

Other observations

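Other cell types of the heart gave small pooled differences. Of 13 endothelial genes 8 lay below 0 (median -0.057), among them Emcn, a surface mucin of vessels (-0.27 ± 0.12), Tie1 (-0.25 ± 0.15) and the lipase anchor Gpihbp1 (-0.20 ± 0.13). The other 5 lay above 0, with Flt1 (0.16) and Cav1 (0.15) the highest. At an unadjusted p under 0.05 there were 0 higher and 1 lower (7.69% in all, against 9.92% of named genes). The list median was -0.17 at 1 week, 0.030 at 2 weeks and 0.067 at 4 weeks. The pericyte receptor gene Pdgfrb differed by -0.48 ± 0.14, with 11 of 12 hypoxia arrays below the control mean. It belongs to a list of 5 smooth muscle and pericyte genes with a median of -0.025, in which the pericyte gene Rgs5 was at 0.31 and Mylk at 0.17. Atrial genes lay below 0 in 7 of 8 cases (median -0.21), 3 of them in both kinds. The CIH median was -0.57 and the CCH median 0.054. At an unadjusted p under 0.05 there were 0 higher and 2 lower (25% in all, against 9.92% of named genes). At 2 weeks the list difference was -1.24 without control replicate 1 and 0.13 without control replicate 2, so its sign depended on 1 control. Per array the list median ran from -0.76 to 0.73 on 6 control arrays and from -0.86 to 0.85 on 12 hypoxia arrays. Pam, which amidates peptide hormones and is abundant in atria, gave -0.014 in CCH and -1.63 in CIH, and Tbx5, a cardiac transcription factor, differed by -0.36 ± 0.19. The ventricular strain peptide gene Nppb differed by -0.31 ± 0.35 and ran from -0.71 to 1.48 on 6 control arrays (median 0.35) and from -1.30 to 0.97 on 12 hypoxia arrays (median 0.11).

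Myosin heavy chains of immature muscle lay above control, with Myh8 at 0.49 ± 0.20 and Myh3 at 0.38 ± 0.17, while the skeletal muscle list as a whole had a median of -0.013. Thra, the thyroid hormone receptor gene, gave 0.96 at 1 week, 0.16 at 2 weeks and -0.086 at 4 weeks. Its 1-week value rested on 1 control array (-0.55), with CCH at 0.55 and 1.34 and CIH at -0.27 and 0.021. Cell cycle genes had a median of -0.031, at 0.035 in CCH and -0.10 in CIH. By duration it ran 0.41 at 1 week, -0.46 at 2 weeks and -0.086 at 4 weeks. It was -0.045 at 1 week without control replicate 1 and -0.14 at 2 weeks without control replicate 2. Among its genes were Kif20a, a mitotic kinesin, at 0.42 ± 0.15 (0.27 on its only spot with a value in all 9 groups), and Mcm3, a replication helicase subunit, at -0.50 ± 0.20. Splicing genes had a median of 0.065 (0.0016 in CCH and 0.13 in CIH). Among them Hnrnpf was at 0.44 ± 0.14, Srsf2 at 0.34 ± 0.14 and Hnrnpk at 0.24 ± 0.10, the last above the control mean on 12 of 12 hypoxia arrays. The 4 tested X-linked genes that escape inactivation all lay above 0 (median 0.15), and Eif2s3y differed by 0.12 ± 0.19. None of these passed the adjusted threshold in limma.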
